A study of Mus musculus with 6 samples.

Results

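Expression of RANKL, osteoprotegerin and 8 further ligands and receptors of the tumor necrosis factor (TNF) superfamily was compared in the inflamed mouse colon. The comparison was between sorted IL-11+ and IL-11- cells, which the paper calls fibroblasts. These 10 genes were chosen by symbol, with no threshold on their values but with earlier results of these data known. The paper lists *Tnfsf11* and *Tnfrsf11b* among genes elevated in IL-11+ fibroblasts of this comparison, so counts of called members are descriptive. All 10 were found among the 20327 gene symbols counted. They comprise 3 ligands (*Tnfsf11* for RANKL, *Tnfsf13b* for BAFF and *Tnfsf12* for TWEAK), the soluble decoy receptor osteoprotegerin (*Tnfrsf11b*), and 6 membrane receptors (*Tnfrsf1a*, *Tnfrsf1b*, *Ltbr*, *Tnfrsf12a*, *Tnfrsf21* and *Fas*). TNF superfamily ligands act as trimers on the cell surface or after release by proteases, and their receptors signal through TRAF adaptors to NF-κB and MAP kinases or, where they carry a death domain, also to caspase-8. RANKL binds the receptor RANK on osteoclast precursors, dendritic cells and epithelium, and osteoprotegerin captures RANKL before it reaches RANK. In the intestine, RANKL from stromal cells beneath the epithelium over lymphoid follicles directs the formation of M cells. M cells are the epithelial cells that sample luminal antigens.

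Cells came from the colon of C57BL/6 mice with the *Il11-Egfp* transgene, an artificial chromosome with *Egfp* inserted into *Il11*, so that green fluorescence follows the activity of the transgene. The mice were 9 to 15 weeks old, drank 1.5% dextran sulfate sodium (DSS), which injures the colonic epithelium, for 5 days and then plain water, and were analyzed on day 7. Cells without Ter119, CD45, CD31 and EpCAM, markers of erythroid, hematopoietic, endothelial and epithelial cells, were sorted by EGFP. The groups were EGFP-Positive (IL-11+) and EGFP-Negative (IL-11-) cells (n = 3 libraries per group). Both groups carry the transgene and received DSS, and the IL-11- group holds whatever else remained in the sorted fraction. The smooth muscle marker *Myh11* had 850, 943 and 1332 tags in the IL-11- libraries against 18, 18 and 84 in the IL-11+ libraries. The IL-11- group is therefore not read as fibroblasts alone. RNA was read by 5′Tag-seq, which counts tags from the 5′ side of transcripts. The libraries held 1057170, 1078179 and 1169817 tags in the IL-11- group against 1046538, 1022851 and 1049048 in the IL-11+ group. A floor of 3 tags corresponded to 2.56 to 2.93 CPM, the usual scaling of counts to a common library size. Normalized CPM also carry edgeR's TMM factors. Values of a group are given in the order of replicates 1, 2 and 3 throughout. Intervals from single counts and this floor cover counting error only, because PCR copies without molecular identifiers are not independent molecules. *Il11*, whose activity defined the sort, had 28, 51 and 89 tags in the IL-11- libraries against 1357, 732 and 2658 in the IL-11+ libraries, part of which can come from reporter transcripts.

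Among the members, RANKL showed the largest fitted difference, osteoprotegerin rose by about the fold threshold, and the membrane receptors tested did not pass the test. Of the 10 members, 9 reached 10 tags in 3 or more of the 6 libraries and were tested with edgeR, and *Tnfrsf21* was under this filter. The thresholds for a call were an adjusted p under 0.05 together with a fold change over 2. By this rule 2 members (*Tnfsf11* and *Tnfrsf11b*) were higher in IL-11+ fibroblasts, where 3.44% of the 9334 tested genes were called higher. No tested member was called lower in the quasi-likelihood test of edgeR or by DESeq2, and 0 had an unadjusted p under 0.05 in that direction, where 6.37% of all tested genes were called lower. With the adjusted p alone, 3 members were higher (6.84% of all tested genes) and 0 were lower (8.7%). All IL-11+ libraries lay above all IL-11- libraries for 2 of the tested members (14.5% of all tested genes) and below them for 0 (16.7%), and 7 members overlapped. Tested members had a median log2 fold change of 0.23 (9 genes), against -0.01 for all tested genes. In sorted populations, fewer cells of a type and less RNA per cell cannot be told apart.

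**Figure D1:**
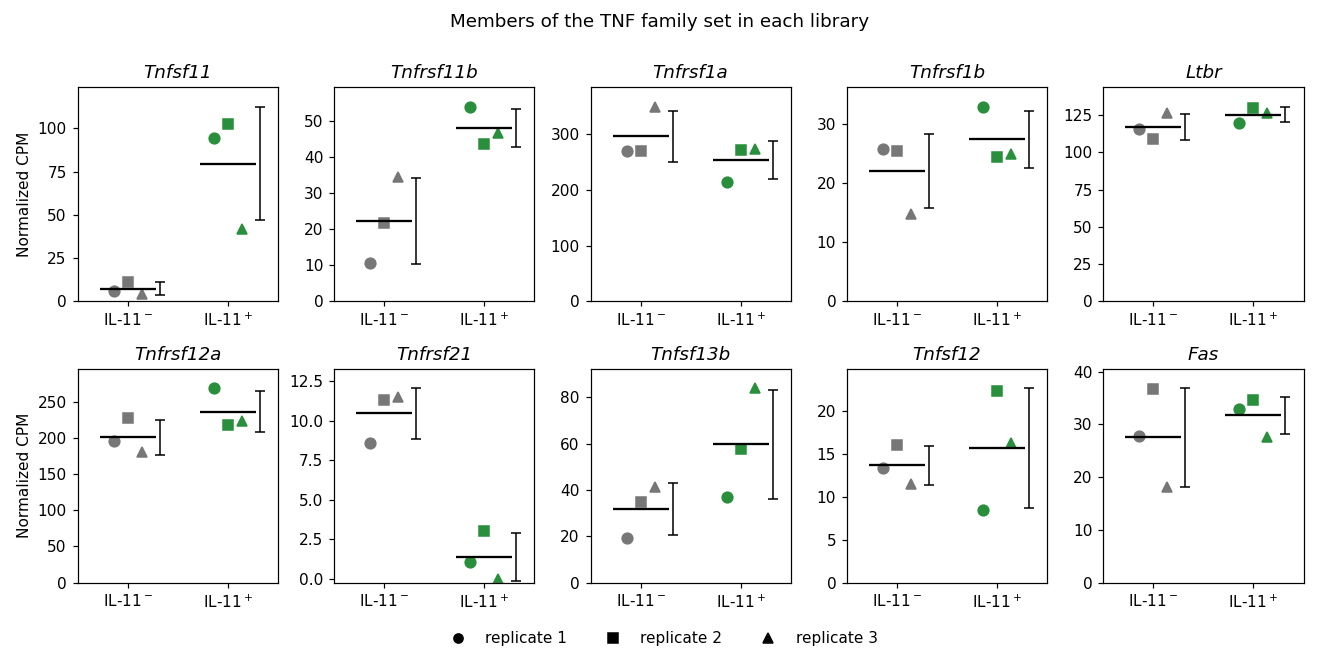
Normalized CPM (vertical axis, separate linear scale for each gene) of the 10 members in IL-11- (gray) and IL-11+ (green) libraries, with replicate numbers as symbols, group means as horizontal lines and SD as bars (n = 3). *Tnfsf11* and *Tnfrsf11b* did not overlap between the groups, *Tnfrsf21* was at 1, 3 and 0 tags in IL-11+ libraries, and the other 7 members overlapped.

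*Tnfsf11*, on the minus strand of chromosome 14 (78277445 to 78308043 in GRCm38), had 6, 12 and 5 tags in the IL-11- libraries against 89, 101 and 44 in the IL-11+ libraries. The lowest IL-11+ library was replicate 3, which was also the lowest replicate of the IL-11- group, and the groups were far apart. The log2 fold change was 3.49 (SE 0.388, 95% confidence interval 2.68 to 4.31), which corresponds to an 11.3-fold difference with an interval from 6.40 to 19.8. Within same-numbered libraries, normalized CPM was 16.5, 9.07 and 10.2 times as high in IL-11+ as in IL-11- cells. *Il11* did not follow the same order, since its highest value was in IL-11+ replicate 3, where *Tnfsf11* was the lowest of its group.

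By the root mean square difference of log2 normalized CPM over the 6 libraries, each gene centred on its own mean, the 5 genes closest to *Tnfsf11* among those with a mean of at least 30 tags were *Cxcl5* (0.325), *Ces1f* (0.367), *Saa3* (0.367), *Col12a1* (0.408) and *Ces1g* (0.409). *Cxcl5* encodes a neutrophil-attracting chemokine, *Saa3* an acute-phase protein, *Col12a1* a fibril-associated collagen, and *Ces1f* and *Ces1g* carboxylesterases. *Ces1f* had 31, 26 and 19 tags in the IL-11- libraries against 258, 260 and 167 in the IL-11+ libraries. Replicate 3 was the lowest of each group for *Ces1f*, as for *Tnfsf11*, which the selection of genes by likeness favors. This ranking is a description of 6 libraries.

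The promoter of *Tnfsf11* is shown because this gene had the largest fitted difference among the tested members. Promoter sequences were found in RefSeq (GRCm38.p6) for 8 of the 10 members, not for *Tnfrsf11b* and *Tnfsf12*. The 250 bases upstream of the annotated start, chr14:78308044-78308293 on the minus strand, hold the letters TATAA (capitals) beginning 30 bases before the start:
Tnfsf11: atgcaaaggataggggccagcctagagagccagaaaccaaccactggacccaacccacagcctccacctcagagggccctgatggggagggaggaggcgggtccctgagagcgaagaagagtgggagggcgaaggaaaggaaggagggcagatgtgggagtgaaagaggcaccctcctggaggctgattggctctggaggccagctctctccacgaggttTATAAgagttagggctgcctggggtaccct
TATAA on the strand of the gene occurred in such a window of 2 of the 8 members (*Tnfsf11* and *Tnfrsf12a*) and in 16.0% of 32851 promoters. On either strand, TGANTCA (AP-1) was found for *Fas* and *Tnfsf13b* and in 6.75% of all promoters, and TTCNNNGAA (STAT) for *Fas*, *Tnfrsf1a* and *Tnfrsf1b* and in 7.02%. GGGCGG (GC box) was found on either strand for 5 of the 8 members and in 32.7% of all promoters, and the NF-κB consensus for 0 members and in 3.90%. These matches are of letters only and no binding was measured.

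*Tnfrsf11b*, for the decoy receptor osteoprotegerin, lies on the minus strand of chromosome 15 (54250619 to 54278484). It had 11, 23 and 42 tags in the IL-11- libraries against 51, 43 and 49 in the IL-11+ libraries. The IL-11+ libraries were close to each other, whereas the IL-11- libraries spread widely, with replicate 1 lowest and replicate 3 just under the lowest IL-11+ library. Within same-numbered libraries, normalized CPM was 5.15, 2.01 and 1.36 times as high in IL-11+ fibroblasts, most in replicate 1, where the IL-11- value was lowest. The log2 fold change was 1.09 (SE 0.31, 95% confidence interval 0.44 to 1.74), and the adjusted p was 0.0216 in edgeR's test, Benjamini-Hochberg adjusted. The call was lost without IL-11- replicate 1 (0.76, edgeR adjusted p = 0.0895), without IL-11- replicate 2 (1.07, adjusted p = 0.0784) and without IL-11+ replicate 1 (1.01, adjusted p = 0.0744). Scaled by library size only, *Tnfrsf11b* fell under the fold threshold, with a log2 fold change of 0.997 and an adjusted p of 0.0431 in edgeR's test. Over all alternatives its adjusted p ranged from 0.00091 to 0.0895 (edgeR and DESeq2).

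Because osteoprotegerin captures RANKL, the tags of *Tnfsf11* and *Tnfrsf11b* were also compared within each library, where scaling has no effect. The ratio of *Tnfsf11* to *Tnfrsf11b* tags was 0.545, 0.522 and 0.119 in IL-11- and 1.75, 2.35 and 0.898 in IL-11+ replicates 1, 2 and 3. The lowest IL-11+ ratio, in replicate 3, was above the highest IL-11- ratio, and replicate 3 was the lowest in each group. The mean log2 ratio, with 0.5 tags added to each count, was -1.56 ± 1.2 in IL-11- and 0.62 ± 0.70 in IL-11+ libraries (SD, n = 3). The difference of 2.18 (4.54-fold) had p = 0.1 in a two-sided exact permutation test, the smallest p that 3 libraries against 3 can give. Without IL-11- replicate 3 the difference was 1.49, over 1.5 times smaller on the linear scale. These are ratios of tags, not of proteins, and only their difference between groups is read here, because tag yield per transcript can differ between genes.

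*Tnfsf13b* encodes BAFF, a survival factor for B cells and plasma cells. It lies on the plus strand of chromosome 8 (10006467 to 10039072) and had 20, 37 and 50 tags in the IL-11- libraries against 35, 57 and 88 in the IL-11+ libraries. The groups overlapped, since IL-11+ replicate 1 was below IL-11- replicate 3, but the IL-11+ library was the higher in each of the 3 same-numbered pairs, by 1.94, 1.66 and 2.04 times in normalized CPM. The log2 fold change was 0.91 (SE 0.3, 95% confidence interval 0.28 to 1.54), with an adjusted p of 0.0475 in edgeR's test, Benjamini-Hochberg adjusted, under the fold threshold and therefore not called. It passed both thresholds without IL-11- replicate 3 (1.15, edgeR adjusted p = 0.0295) and without IL-11+ replicate 1 (1.16, adjusted p = 0.0114). Its adjusted p was over 0.05 without IL-11- replicate 1 (0.65, edgeR adjusted p = 0.198) or 2 (0.98, adjusted p = 0.101) and without IL-11+ replicate 2 (0.94, adjusted p = 0.104) or 3 (0.57, adjusted p = 0.264). It was also over 0.05 with library size only (0.0946), DESeq2 (0.0738) and at least 10 tags in all 6 libraries (0.0587), within a range of 0.00198 to 0.264 over all alternatives.

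*Tnfsf12* encodes TWEAK, the ligand of the receptor encoded by *Tnfrsf12a*. It lies on the minus strand of chromosome 11 (69686250 to 69695849), inside the read-through gene *Tnfsfm13* (69682577 to 69696098), which joins *Tnfsf12* to *Tnfsf13*. In the annotated transcripts, 85.7% of the 50-base windows within the first 300 bases of *Tnfsf12* also occur in *Tnfsfm13*, so 5′ tags of these genes can be exchanged and both are uncertain. For the other 9 members, 0% of such windows occurred in another gene. *Tnfsf12* had 14, 17 and 14 tags in the IL-11- libraries against 8, 22 and 17 in the IL-11+ libraries. IL-11+ replicates 1 and 2 were the lowest and the highest of the 6 libraries. The log2 fold change was 0.21 (95% confidence interval -0.58 to 1.01, adjusted p = 0.785 in edgeR), and it was -0.12 without IL-11+ replicate 2. *Tnfsfm13*, with 27, 30 and 26 tags in the IL-11- libraries against 8, 18 and 8 in the IL-11+ libraries, was called lower (-1.12, SE 0.356, edgeR adjusted p = 0.0384). Summed with *Tnfsfm13*, an alternative added after seeing the data, *Tnfsf12* turned to -0.51 (SE 0.293, edgeR adjusted p = 0.292) and was not called, within a range of 0.292 to 0.922 over all alternatives. No direction was established for *Tnfsf12*.

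*Tnfrsf12a* encodes Fn14, the receptor of TWEAK, and lies on the minus strand of chromosome 17 (23675445 to 23677468). It had 205, 242 and 220 tags in the IL-11- libraries against 254, 215 and 234 in the IL-11+ libraries, and the groups overlapped. Its log2 fold change was 0.23 (95% confidence interval -0.12 to 0.59, adjusted p = 0.415 in edgeR). The mean log2 ratio of *Tnfsf12* to *Tnfrsf12a* tags within a library differed by -0.12 between IL-11+ and IL-11- cells (p = 1 in a two-sided exact permutation test). It was 0.35 without IL-11+ replicate 1.

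The receptors for TNF and for lymphotoxin showed small differences with intervals that included 0. *Tnfrsf1a*, for the death domain receptor TNFR1 (chromosome 6, 125349362 to 125362484), had 283, 286 and 426 tags in the IL-11- libraries against 202, 268 and 288 in the IL-11+ libraries. IL-11- replicate 3 was the highest library and IL-11+ replicate 1 the lowest, and the other 4 were close together. The log2 fold change was -0.23 (95% confidence interval -0.59 to 0.14, adjusted p = 0.455 in edgeR). *Tnfrsf1b*, for TNFR2, which binds TNF without a death domain (chromosome 4, 145213463 to 145246870), had 18 to 27 tags in the IL-11- against 24 to 31 in the IL-11+ group, a log2 fold change of 0.32 (-0.31 to 0.95). *Ltbr*, for the lymphotoxin β receptor that organizes lymphoid tissue (chromosome 6, 125306571 to 125313885), had 116 to 154 and 113 to 133 tags, a log2 fold change of 0.10 (-0.24 to 0.44). *Fas*, for the death receptor of Fas ligand (chromosome 19, 34290666 to 34327772), had 22 to 39 and 29 to 34 tags, a log2 fold change of 0.21 (-0.39 to 0.81) that turned to -0.027 without IL-11- replicate 3. The adjusted p was 0.546 for *Tnfrsf1b*, 0.764 for *Ltbr* and 0.697 for *Fas* in edgeR's test, Benjamini-Hochberg adjusted. These p do not show equal expression, and the intervals reach fold changes of 1.93 for *Tnfrsf1b*, 1.36 for *Ltbr* and 1.75 for *Fas*.

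**Figure D2:**
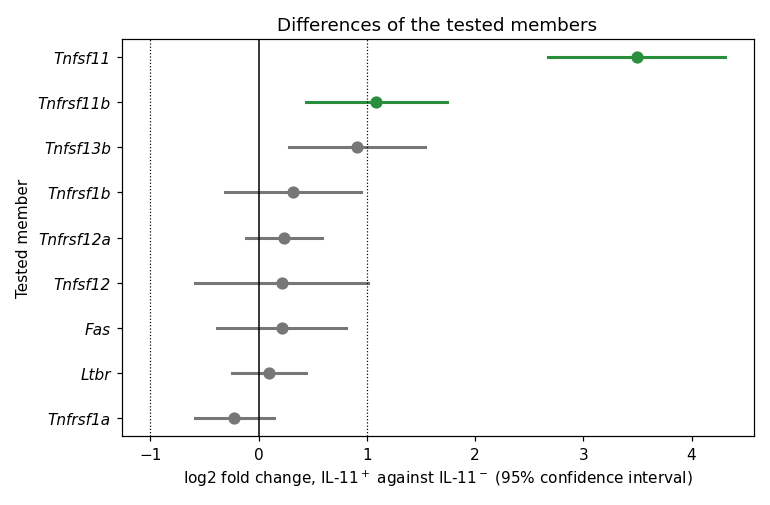
Log2 fold change of IL-11+ against IL-11- cells (horizontal axis) for the 9 tested members, with points for estimates and lines for 95% confidence intervals from edgeR's quasi-likelihood fit, green for called members and gray for the others, and dotted lines at a fold change of 2. *Tnfsf11* (3.49) stands apart from the other members, and 6 intervals include 0.

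*Tnfrsf21* encodes death receptor 6 and lies on the plus strand of chromosome 17 (43016555 to 43089189). It had 9, 12 and 14 tags in the IL-11- libraries against 1, 3 and 0 in the IL-11+ libraries. All IL-11+ libraries were at or under the floor of 3 tags, and all IL-11- libraries were above it. From sums of 35 and 4 tags, the level in IL-11- was 7.83 times that in IL-11+ fibroblasts (exact 95% confidence interval 2.80 to 30.3). The ratio was 21.0 without IL-11+ replicate 2 and 5.07 without IL-11+ replicate 3. Without a filter on low counts, *Tnfrsf21* was called lower, with an adjusted p of 0.00134 in edgeR's test. That fit took the spread from a trend over genes, not from the libraries of *Tnfrsf21*.

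The partners of several members were at or near the limit of detection. *Tnfrsf11a*, the gene for RANK, had 3, 3 and 1 tags in the IL-11- libraries against 0, 1 and 1 in the IL-11+ libraries. *Tnf*, for the ligand of TNFR1 and TNFR2, had 1 to 3 tags in every library. *Lta* and *Ltb*, for the lymphotoxins that signal through *Ltbr*, had 1 tag each, in an IL-11- library, and 0 tags in all IL-11+ libraries. For the list counts here and below, 3.44% of all tested genes were called higher and 6.37% lower, and no list was tested as a set. Of 12 other superfamily ligands found in the counts, 2 passed the filter and 1 was called lower. It was *Tnfsf9*, for the ligand of 4-1BB, with 84, 67 and 32 tags in the IL-11- libraries against 24, 27 and 18 in the IL-11+ libraries, and the groups overlapped in normalized CPM, where IL-11+ replicate 2 was just above IL-11- replicate 3. It fell by 1.26 on the log2 scale (SE 0.34, edgeR adjusted p = 0.0151). The call was lost without IL-11- replicate 1 (-0.92, edgeR adjusted p = 0.109), IL-11- replicate 2 (-1.16, adjusted p = 0.0735) or IL-11+ replicate 3 (-1.08, adjusted p = 0.0592), within a range of 0.000135 to 0.109 over all alternatives. Of 19 other receptors found, 4 passed the filter and 1 was called higher, *Tnfrsf9* for 4-1BB itself, a costimulatory receptor best known from T cells. *Tnfrsf9* had 6, 9 and 0 tags in the IL-11- libraries against 65, 40 and 15 in the IL-11+ libraries, and the groups did not overlap. The log2 fold change was 3.14 (SE 0.606, edgeR adjusted p = 0.00121), whereas DESeq2 gave an adjusted p of 0.0774, the highest of its alternatives. The lowest, 1.36e-14, came from edgeR's fit without a filter on low counts. The log2 fold change of *Tnfrsf9* was 3.89 without IL-11- replicate 2 and 2.50 without IL-11- replicate 3. The ligand and the receptor of the 4-1BB pair thus differed in opposite directions.

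Beneath the receptors, 0 of 18 tested adaptors, kinases and enzymes of ubiquitin chains were called by edgeR or by DESeq2, 1 was higher and 3 were lower at an unadjusted p under 0.05, and the median log2 fold change was -0.10. *Ripk1*, the kinase that links TNFR1 to NF-κB and to cell death, had an adjusted p of 0.00318 from edgeR and stayed under the fold threshold. It had 122, 107 and 108 tags in the IL-11- libraries against 51, 54 and 63 in the IL-11+ libraries, which did not overlap (log2 fold change -0.85). *Map3k5*, for the kinase ASK1, was called lower only without IL-11- replicate 1 (-1.07, edgeR adjusted p = 0.0289). Of 7 tested genes of the caspase-8 and necroptosis branch, 1 was called higher by edgeR and 0 by DESeq2, and 0 were lower by either or at an unadjusted p under 0.05 (median 0.56). The higher gene, *Ripk3* for the kinase of necroptosis, had a log2 fold change of 1.11 (SE 0.329, edgeR adjusted p = 0.0267), and its adjusted p was 0.0557 with DESeq2. The *Ripk3* call was also lost without IL-11- replicate 1 (1.15, edgeR adjusted p = 0.0626) or 3 (0.80, adjusted p = 0.119), or IL-11+ replicate 1 (1.11, adjusted p = 0.0595) or 3 (0.99, adjusted p = 0.0853), within a range of 0.0062 to 0.119. *Cflar*, an inhibitor of caspase-8, had a log2 fold change of 0.64 (SE 0.183, edgeR adjusted p = 0.0212), under the fold threshold. Its adjusted p ranged from 0.00126 to 0.11 and was over 0.05 with library size only (0.063) and without IL-11- replicate 1 (0.107) or 2 (0.0609) or IL-11+ replicate 3 (0.11).

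Of 14 tested genes of the NF-κB arm, 1 rose and 0 fell (median 0.25). At an unadjusted p under 0.05, 4 were higher and 1 was lower, and DESeq2 called 2 higher and 0 lower. The higher gene was *Tnip1*, a partner of the NF-κB inhibitor A20, at 1.08 (SE 0.201, edgeR adjusted p = 0.000846), which fell under the fold threshold without IL-11- replicate 1 (0.94, adjusted p = 0.00727). *Tnfaip3*, for A20, had 256 to 275 tags in the IL-11- against 404 to 513 in the IL-11+ group without overlap. Its log2 fold change was 0.99 (SE 0.176, edgeR adjusted p = 0.000596), just under the fold threshold, which it passed with RLE normalization, with DESeq2 and without a filter. It also passed without IL-11- replicate 1 (1.05) or 2 (1.03) and without IL-11+ replicate 3 (1.12). *Nfkbia*, for the inhibitor IκBα, had a log2 fold change of 0.73 (SE 0.189, edgeR adjusted p = 0.0116). *Ikbkg*, for NEMO, named after its values were seen, was called lower with the replicate number as a block (-1.14, adjusted p = 0.0482 in edgeR), and without the block its log2 fold change was the same and its adjusted p 0.103.

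Proteases that release ligands and receptors of the family, and their inhibitors, had 8 tested genes, of which 2 rose and 0 fell (median 0.51). With the unadjusted p alone 5 were higher and 1 was lower, and by DESeq2 2 were called higher and 0 lower. The lower gene was *Timp2*, another inhibitor of metalloproteinases (-0.52, edgeR adjusted p = 0.0603), with 1012, 938 and 850 tags in the IL-11- libraries against 461, 643 and 670 in the IL-11+ libraries, without overlap. *Timp1*, an inhibitor of metalloproteinases, rose by 2.03 (SE 0.198), and *Rhbdf2*, which carries the sheddase ADAM17 to the cell surface, by 1.50 (SE 0.342). The adjusted p was 8.37e-07 and 0.00461 in edgeR's test. *Mmp14*, for a membrane metalloproteinase that can cleave RANKL, had a log2 fold change of 0.91 (SE 0.187, edgeR adjusted p = 0.00195), over the fold threshold only without IL-11- replicate 2 (1.02). *Adam17*, for the enzyme that sheds TNF, had one of 0.65 (SE 0.202, edgeR adjusted p = 0.034), and its adjusted p was over the threshold in several alternatives (0.0124 to 0.188 in all). These included DESeq2 (0.0956), library size only (0.074), the stricter filter (0.0527), and the fits without IL-11- replicate 1 (0.0738), 2 (0.0569) or 3 (0.116) or IL-11+ replicate 2 (0.188).

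Of 7 tested receptors for hormones and cytokines that induce RANKL in stromal cells, 1 rose and 1 fell (median -0.20). *Il1r1*, for the IL-1 receptor, rose with 246 to 273 tags in the IL-11- against 502 to 515 in the IL-11+ group, a log2 fold change of 1.15 (SE 0.158, edgeR adjusted p = 3.95e-05). *Il6ra*, for the IL-6 receptor α chain, fell by 1.22 on the log2 scale (SE 0.285, edgeR adjusted p = 0.00541). *Ptger2*, for a prostaglandin E2 receptor, was under the filter with 2, 4 and 5 tags in the IL-11- libraries against 23, 8 and 19 in the IL-11+ libraries, and was called higher without a filter (2.35, edgeR adjusted p = 0.000115). Of 4 tested genes that lymphotoxin signaling induces in lymphoid stroma, 2 rose and 0 fell (median 0.57), beside 3.44% and 6.37% of all tested genes. Among these 4, 0 were lower at an unadjusted p under 0.05, and DESeq2 called 1 higher and 0 lower. *Vcam1*, for an adhesion molecule, rose by 1.22 (SE 0.204, edgeR adjusted p = 0.000311) without overlap. *Cxcl13*, for a B cell chemoattractant, had 770, 679 and 414 tags in the IL-11- libraries against 1434, 1756 and 684 in the IL-11+ libraries, with overlap between the groups. Its log2 fold change was 1.21 (SE 0.3, edgeR adjusted p = 0.00883, and 0.131 from DESeq2). The *Cxcl13* call was lost without IL-11- replicate 3 (0.94, edgeR adjusted p = 0.0383) or IL-11+ replicate 2 (0.93, adjusted p = 0.0759), within a range of 3.9e-10 to 0.131.

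Cell type markers moved with the groups as well, and their part in the results for the members was not tested. All 7 smooth muscle markers fell, with summed tags of 2691, 3411 and 4899 in IL-11- and 91, 153 and 351 in IL-11+ replicates 1, 2 and 3 and *Myh11* as the most abundant gene. Of 7 tested pericyte markers 4 fell (*Rgs5*, *Cspg4*, *Mcam* and *Notch3*), with sums of 2813, 2444 and 2574 against 1015, 889 and 843. Most of this difference came from *Rgs5*, the most abundant of them, and the other pericyte markers summed to 862, 744 and 774 against 829, 715 and 637 tags. *Kcnj8* (0.71, edgeR adjusted p = 0.0394) and *Abcc9* (0.66, adjusted p = 0.0167) were higher in IL-11+ libraries, under the fold threshold. *Pdgfrb* was not called (-0.38, edgeR adjusted p = 0.176), and *Higd1b*, under the filter, had 5, 15 and 10 against 0, 0 and 1 tags. *Gfap*, the only tested and most abundant glial marker, fell, and the glial markers had sums of 27, 35 and 35 against 1, 0 and 1, with *Sox10* and *S100b* at 0 in all IL-11+ libraries. All 8 fibroblast markers were tested, 2 of them rose (*Col3a1* and *Pdpn*) and 0 fell (0 by DESeq2, and 1 lower at an unadjusted p under 0.05), and *Dcn* was the most abundant. Under the fold threshold, *Thy1* (0.88, edgeR adjusted p = 0.00832) and *Dcn* (0.67, adjusted p = 0.0462) were higher and *Lum* was lower (-0.64, adjusted p = 0.0378), each without overlap. Fibroblast marker sums were 21912, 22019 and 28691 in IL-11- and 38753, 32364 and 30991 in IL-11+ libraries. Fibroblast genes were thus abundant in both groups, and smooth muscle markers, *Gfap* and 4 of the pericyte markers were lower in IL-11+ libraries.

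Markers of the cells removed by the sort were counted as well. Endothelial markers summed to 9, 7 and 2 tags in IL-11- and 0, 2 and 2 in IL-11+ replicates (*Emcn* most abundant, *Pecam1* at 0 in all IL-11+ libraries). Epithelial markers summed to 3, 0 and 15 against 2, 1 and 4 tags (*Krt8* most abundant). Erythroid markers summed to 95, 0 and 372 against 17, 2 and 20 tags (*Hbb-bs* most abundant). Lymphocyte and innate lymphoid markers summed to 150, 166 and 7 against 59, 249 and 70 tags, nearly all of them from *Jchain*, a plasma cell gene. The 9 other genes of this list, those of T cells among them, had at most 3 tags in any library and summed to 2, 7 and 3 against 7, 4 and 2 tags. Myeloid markers summed to 33, 26 and 25 against 72, 49 and 31 tags. *Cd14* was the most abundant and the only tested gene of this list, and it was called higher. *Ptprc*, for CD45, had 1, 2 and 7 tags in the IL-11- libraries against 0, 3 and 0 in the IL-11+ libraries.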

How the data were processed

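Tags of 6 libraries were compared, 3 from EGFP-Positive and 3 from EGFP-Negative cells. According to the methods and the submitters' processing notes, the authors trimmed reads (cutadapt 1.18), aligned them to RefSeq RNA (Bowtie2 2.2.5) and deposited unnormalized tag counts per gene symbol. Tags of several genes are not described further. Genes reaching 10 tags in 3 or more libraries were tested in R 4.3.3 with edgeR 4.0.16 (TMM, library sizes summed over tested genes, glmQLFit, glmQLFTest, Benjamini-Hochberg adjustment over 9334 genes). The study's filter sentence was read as keeping genes with 10 or more tags. Normalized CPM divide tags by the scaled library size. Standard errors are the log2 fold change divided by the root of F.

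The methods give 3 mice for this comparison and do not say which libraries share a mouse. Over 5063 genes averaging 30 tags or more, deviations of same-numbered libraries from their group means correlated across genes (r = 0.23, 0.19 and 0.26). Differently numbered libraries gave r from -0.21 to -0.0041, partly because deviations within a group sum to 0. The numbers were therefore taken to pair the libraries in comparisons of same-numbered libraries and in the replicate block. The main fit holds the group only, and the methods describe no block. The p-values of edgeR measure spread between these libraries, with each gene's spread drawn toward a trend over genes. Without a filter on low counts, that trend alone set the spread. Adjusted p from that fit thus do not reflect the spread of a gene's own libraries.

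The members and lists were chosen with earlier results of these data known. Named genes are the members, list genes outside the markers with an adjusted p under 0.05 (at most 5 per direction), the 5 nearest to *Tnfsf11*, and *Tnfrsf11a*, *Tnf*, *Lta*, *Ltb* and *Il11*. A few list genes are not reported here and enter no list count or sum. Any gene beyond this rule was picked with its values in view. Positions come from GENCODE (GRCm38) and promoters from RefSeq. Alternatives were RLE, library size only, iterative TMM, DESeq2 1.42.0, other filters, a replicate block, the adjusted p alone and each library left out. Library totals over all symbols, the sum of *Tnfsf12* with *Tnfsfm13* and the alternatives for *Tnfrsf21* were added after seeing the data. The test was checked on simulated data.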

Additional observations from a re-analysis of the deposited data

How the results depend on the processing

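*Tnfsf11* was called higher in each alternative that could test it (highest adjusted p 6.99e-05, edgeR and DESeq2), and at least 10 tags in all 6 libraries left it untested. With that filter 7098 genes were tested, 220 were higher and 256 were lower. Without the fold threshold 638 genes were higher. With a replicate block 337 genes were higher and 648 were lower, no member's call changed, and the only listed gene outside the markers to change was *Ikbkg*. The difference in the *Tnfsf11* to *Tnfrsf11b* ratio was 2.18 with the block (p = 0.25 in an exact sign-flip permutation test, the smallest that 3 pairs can give), and 1.49 to 2.57 with each library left out.

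The number of members called higher was 1 with library size only, 1 with at least 10 tags in all 6 libraries, and 1 to 3 with each library left out. Without a filter, 1 member (*Tnfrsf21*) was called lower, and of other listed genes under the filter *Ptger2* and *Tnfrsf23* were called higher and *Ccl19* lower (adjusted p 0.000115, 0.0381 and 0.0142 in edgeR). *Tnfsf12* reversed to -0.12 without IL-11+ replicate 2 (range -0.12 to 0.51 with each library left out) and to -0.51 summed with *Tnfsfm13*, *Fas* to -0.027 without IL-11- replicate 3 (range -0.027 to 0.49), and the *Tnfsf12* to *Tnfrsf12a* ratio to 0.35 without IL-11+ replicate 1 (range -0.48 to 0.35). The cause was not tested. Library totals over all symbols, used first and then replaced by totals over the tested genes, gave 322 higher and 588 lower genes and changed no member's call. At this depth, differences of genes near 10 tags have wide intervals.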
